A study of Homo sapiens with 11 samples.

Results

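Of the 55717 regions enriched for CUL4A on chromosomes 1 to 22 of U2OS cells, 13545 (24.3%) shared no base with a replication origin and no base with a CDT2 peak of the same cell line. These CUL4A islands, called free islands here, were chosen by the measured positions of 3 lists, namely CUL4A, U2OS origins and CDT2, so their distance from origins and CDT2 describes the choice and was not tested. The other islands fell into 27727 with an origin only, 3300 with CDT2 only and 11145 with both.

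CUL4A is a cullin, the scaffold of the CRL4 ubiquitin ligase, which holds a RING protein at one end and, through the adaptor DDB1, an exchangeable substrate receptor (a DCAF) at the other. CDT2 is the DCAF that marks licensing factors such as CDT1 for destruction during DNA synthesis, and RepID is a DCAF that binds a subset of replication origins. Origins are the sites where DNA synthesis starts. They are mapped by sequencing the short nascent strands that begin there. H3K4me3 is a histone mark of active promoters, and H3K9me3 marks silent heterochromatin. SKP2 is a substrate receptor of SCF, a related ligase built on another cullin.

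The study compared where these proteins, marks and origins lie on chromatin. CUL4A, H3K4me3 and H3K9me3 were mapped by ChIP-Seq (sequencing of immunoprecipitated chromatin) and origins by nascent strands in U2OS cells, a human osteosarcoma line. WT is named in the sample title for the origins and in the study's text for CUL4A. For the histone marks the titles name U2OS only. The study's text states no drug or synchronization for these maps. SKP2 was mapped in HCT116 WT and HCT116 RepID KO cells, and origins in HCT116 RepID KO cells. HCT116 is a human colon carcinoma line, and RepID had been removed by CRISPR-Cas9. The series design text places the CDT2 ChIP-Seq in U2OS cells that overexpress full-length FLAG-RepID, whereas the study's text names U2OS WT cells for it, so the genotype behind the CDT2 list was not settled. Each condition had 1 sample and 1 list of regions, and the depth behind the lists is unknown. No replicate spread could therefore be given for any value. The 95% intervals below are Wilson intervals of a share and Newcombe intervals of a difference between shares, both cover counting error only, and neighbouring islands are not independent.

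Free islands were short and weak. Their median width was 1400 bp, with quartiles of 800 and 2200 bp and a longest island of 19000 bp. Islands with CDT2 only had the same median of 1400 bp, islands with an origin only reached 2400 bp, and islands with both reached 2600 bp. Of the free islands, 31.0% were 200 to 800 bp wide, and 1.51% were over 5 kb. They made up 14.2% of the summed width of all autosomal islands. An island's width bears on the choice, since a wide island has more bases with which to meet an origin or a CDT2 peak.

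The score that the authors gave each island has no stated unit and was used only to rank islands of the CUL4A list. Its median was 39 in free islands, with quartiles of 30 and 55, against 48 with CDT2 only, 73 with an origin only and 107 with both. Per kb of width the medians lay closer, at 31 in free islands, 33.3 with an origin only, 40 with CDT2 only and 42 with both. A score of at least 100 was held by 761 free islands, or 5.62%, against 31.2% of all autosomal islands. A score of at least 500 was held by 23 free islands, and a score of at least 1000 by 8. The plot of width and score by class shows how low the free islands sat on both scales.

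**Figure D1:**
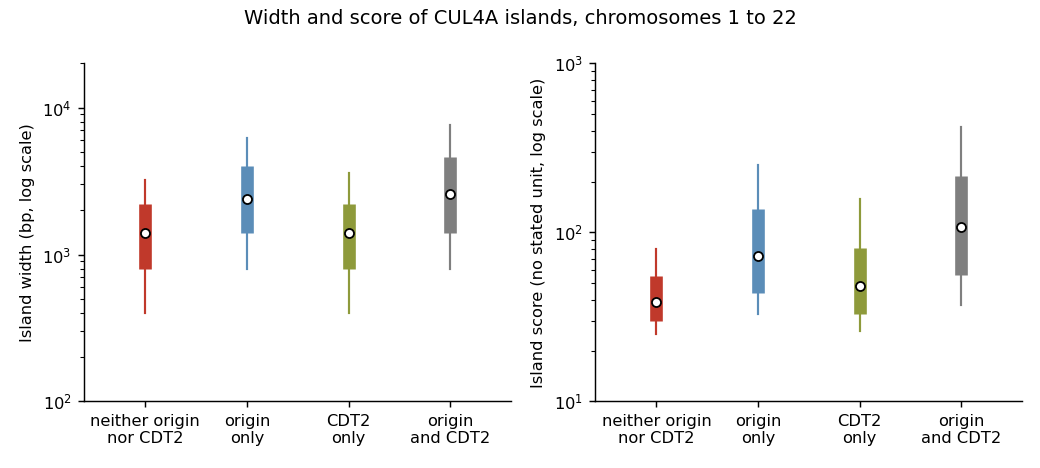
Width in bp (left) and score without a stated unit (right) of the 4 classes of CUL4A islands on chromosomes 1 to 22, both on log axes; circles are medians, thick bars run between quartiles and thin lines between the lowest and the highest decile. Free islands had a median width of 1400 bp and the lowest median score of the 4 classes, 39.

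Most free islands had an origin within 10 kb, in a genome where origins are frequent. The U2OS list held 126050 origins on chromosomes 1 to 22 and covered 14.4% of their span. The share of other sequence within 10 kb of an origin was not counted. Whether free islands lay closer to origins than such sequence was therefore not tested. The median gap to the nearest U2OS origin was 4800 bp, and 9527 free islands (70.3%) had an origin within 10 kb. The median gap to the nearest CDT2 peak was 30391 bp, and 22.5% had one within 10 kb. Both lay within 10 kb at 2667 free islands, neither at 3633, and 313 were more than 100 kb from any origin. Within 100 kb of a free island there was a median of 12 origins, 2 CDT2 peaks and 6 other CUL4A islands, against 18 origins, 3 CDT2 peaks and 10 islands around an island with an origin only. Islands with CDT2 only, which also lacked an origin, were much like free islands here. Their medians were 11 origins and 5 other CUL4A islands, with a gap of 6200 bp to the nearest origin. These values describe the choice. Just inside the limit, 82 free islands touched an origin end to end, with a median width of 2000 bp and a median score of 41. Just outside it, 382 islands with an origin only shared exactly 200 bp with origins, which is 1 step of the grid on which both lists were called, and had a median width of 800 bp and a median score of 32. The free island nearest to CDT2 was 23 bp from a peak, and the smallest overlap of an island with CDT2 only was 8 bp.

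The 5 lists that did not enter the choice were H3K4me3 and H3K9me3 in U2OS, SKP2 in both HCT116 genotypes, and origins of HCT116 RepID KO cells. They are not unrelated to it, since 60.3% of the HCT116 RepID KO origins of chromosomes 1 to 22 shared a base with a U2OS origin. The paper also reports that CDT2 sites colocalize with H3K9me3 and with SKP2 sites. Leaving out islands with CDT2 thus bears on the shares of those lists. Of the free islands, 4540 (33.5%) met none of the 5 lists, 6532 met 1, 2177 met 2, 271 met 3, 22 met 4 and 3 met all 5. The most common single pattern was an HCT116 RepID KO origin and nothing else, at 4633 free islands (34.2%). H3K9me3 alone followed with 1493, H3K9me3 with an HCT116 RepID KO origin with 988, and H3K4me3 with an HCT116 RepID KO origin with 701. Free islands that met none of the lists had a median width of 1000 bp and a median score of 33. The 22 that met 4 lists had a median width of 4000 bp and a median score of 276.

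**Figure D2:**
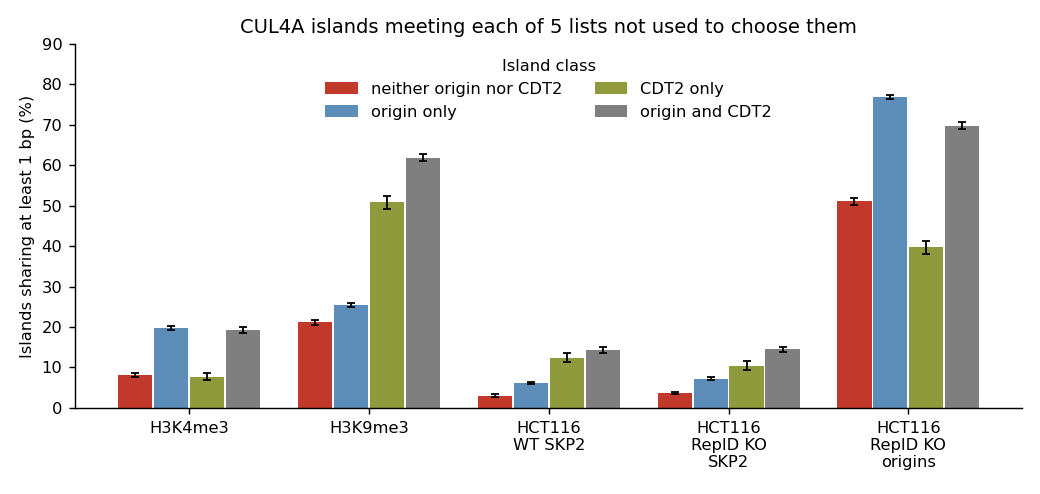
Percentage of CUL4A islands that shared at least 1 bp with each of 5 lists, for the 4 island classes; error bars are Wilson 95% intervals, which cover counting error only. Free islands had the lowest share for H3K9me3 (21.1%) and for both SKP2 lists (3.06% and 3.66%), and for HCT116 RepID KO origins (51.1%) stood above islands with CDT2 only (39.7%).

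H3K4me3, the mark of active promoters, was met by 1113 free islands, or 8.22% (7.77 to 8.69), where 16.2% of all autosomal CUL4A islands met it. The share was 19.8% in islands with an origin only, a difference of -11.6 percentage points (-12.2 to -10.9). With those islands weighted to the widths of the free islands their share was 18.3%, which left a difference of -10.1 points (-10.8 to -9.36). In islands with CDT2 only the share was 7.76%, and the difference of 0.46 points (-0.60 to 1.45) had an interval that included 0. A free island that met H3K4me3 was mostly within the mark, since a median of 79.9% of its width was covered and 393 were covered whole. The 1116 H3K4me3 peaks at free islands were not weaker than others on the list by fold. Their median fold enrichment over the control was 8.98 and their median width 2326 bp, against 7.84 and 2423 bp for peaks at other CUL4A islands and 6.78 and 1699 bp for peaks at no CUL4A island. A U2OS origin lay elsewhere under 15.8% of these peaks, against 94.1% of the peaks at other CUL4A islands, a contrast that the choice of the islands largely fixes.

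H3K9me3, the heterochromatin mark, was met by 2863 free islands, or 21.1% (20.5 to 21.8), against 33.2% of all autosomal CUL4A islands. The shares were 50.8% in islands with CDT2 only and 61.9% in islands with both. Free islands were lower by far than either class that held CDT2, with differences of -29.7 points (-31.5 to -27.8) and -40.8 points (-41.9 to -39.6). The choice removed islands with CDT2, so this contrast follows in part from it. Without the CDT2 list in the choice the share was 26.95%. Islands with CDT2 only had the same median width as free islands, and weighting them to the widths of the free islands gave a difference of -29.3 points. Against islands with an origin only the difference was small and its sign depended on what was counted. Over whole islands the difference was -4.40 points (-5.25 to -3.54), and at equal widths it was -2.09 points (-3.01 to -1.18). Counted in 1 kb around each island's centre it was higher, 17.1% against 15.8%, a difference of 1.37 points (0.61 to 2.14). H3K9me3 regions were narrow, with a median width of 321 bp, and covered a median of 28.1% of the free islands that they met. The 2931 H3K9me3 regions at free islands had a median fold enrichment of 4.17 and a median −log10 q of 2.66, and 70.3% of them had a −log10 q of at least 2. For regions at other CUL4A islands the values were 4.10, 3.14 and 77.1%, and for regions at no CUL4A island 3.995, 2.33 and 61.6%, so regions at free islands lay between those by −log10 q.

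SKP2, a substrate receptor of SCF, met few free islands. In HCT116 WT cells its regions met 415, or 3.06% (2.79 to 3.37), against 7.45% of all autosomal CUL4A islands. In HCT116 RepID KO cells they met 496, or 3.66%, against 8.01% of all. Islands with an origin only had 6.23% and 7.24%, which fell to 4.47% and 5.03% at the widths of the free islands, so that the differences shrank to -1.41 points (-1.81 to -1.002) and -1.36 points (-1.79 to -0.94). Islands with CDT2 only had 12.4% and 10.5%, a contrast that also follows in part from the choice. Without the CDT2 list in the choice, the shares of free islands were 4.90% and 4.999%. Of the free islands with a WT region, 13.5% also met a RepID KO region, against 3.35% of the other free islands, and 56 met both. The lists came from 1 sample of each genotype, so the WT and RepID KO shares were not compared as conditions.

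Replication origins of HCT116 RepID KO cells met 6915 free islands, or 51.1% (50.2 to 51.9), although by choice no free island met an origin of U2OS. Among all autosomal CUL4A islands the share was 67%. It was 77.0% in islands with an origin only and 69.8% with both, and at the widths of the free islands 67.1% and 54.4%. The differences at equal widths were -16.0 points (-17.1 to -14.9) and -3.35 points (-4.77 to -1.94). Islands with CDT2 only, which also lacked a U2OS origin and had the same median width, reached 39.7%, so free islands stood 11.4 points higher (9.51 to 13.2). Where they met, 3691 free islands were covered whole by HCT116 RepID KO origins, and the list as a whole covered 9.83% of the autosomal span. Of the 6848 HCT116 RepID KO origins at free islands, 22.8% also touched a U2OS origin outside the island. Of those at other CUL4A islands 93.4% did, a contrast that the choice of the islands largely fixes. The HCT116 RepID KO origins at free islands had a median score of 205 and a median width of 2600 bp. Both lay above those of origins at no CUL4A island, 117 and 1600 bp. Both lay below those of origins at other CUL4A islands, 350 and 3400 bp. The scores were not compared at equal widths. Whether the difference between the lists followed the cell line or RepID cannot be told apart here, since both changed.

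The marks and origins were centred on the free islands. Around the centres of free islands, 8.82% were covered by H3K9me3 at the centre and 1.29% at 9 to 10 kb, a ratio of 6.85. Around islands with an origin only the values were 7.07% and 1.63%, a ratio of 4.34. Those islands were wider, and coverage was not weighted to equal widths. In the classes with CDT2 more centres lay inside H3K9me3, 24.85% with CDT2 only and 21.2% with both, against 9.10% of free islands. H3K4me3 covered 5.89% of free islands at the centre and 2.60% at 9 to 10 kb, against 12.8% and 4.85% for islands with an origin only. For HCT116 RepID KO origins the coverage was 43.7% at the centre and 21.5% at 9 to 10 kb. SKP2 covered 1.37% in WT and 1.43% in RepID KO cells at the centre, and 0.37% and 0.38% at 9 to 10 kb. At 1.5 to 2.5 kb from the centre, the coverage of free islands by H3K9me3 was 1.02% and by SKP2 0.25% in WT and 0.30% in RepID KO cells, each under its level at 9 to 10 kb. Islands with an origin only had such dips as well. There H3K9me3 covered 1.46% at 1.5 to 2.5 kb against 1.63% at 9 to 10 kb. SKP2 covered 0.32% against 0.47% in WT and 0.43% against 0.53% in RepID KO cells. The plot of coverage around island centres shows these narrow peaks and the shallow dips beside them.

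**Figure D3:**
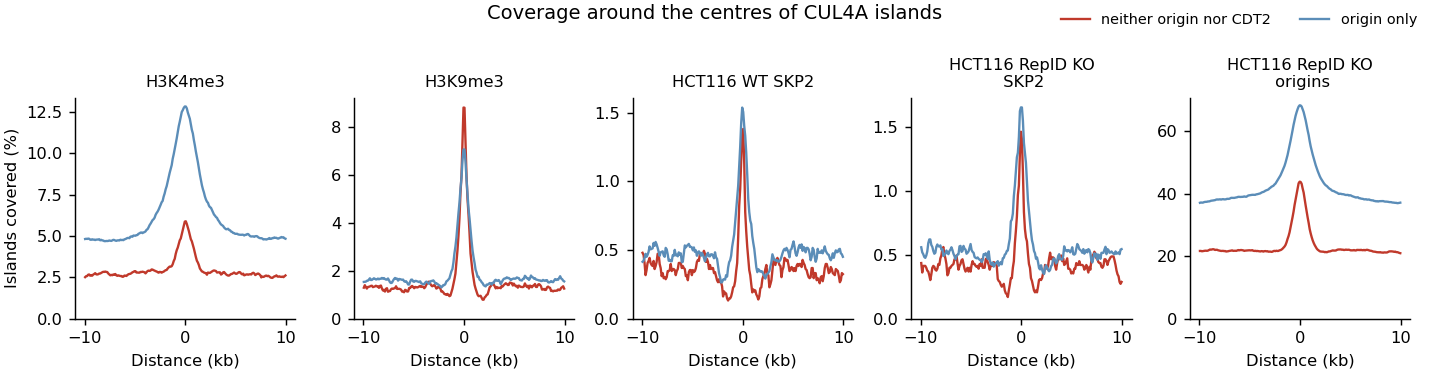
Percentage of CUL4A islands covered by each of 5 lists in bins of 100 bp, by distance in kb from the island centre, for free islands (red) and islands with an origin only (blue); the vertical axes differ between panels. H3K9me3 was the one list of the 5 that covered more free islands (8.82%) than islands with an origin only (7.07%) at the centre. Coverage was not weighted to equal island widths.

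Among free islands, H3K4me3 and H3K9me3 parted with the HCT116 RepID KO origins. H3K4me3 was met by 12.3% of the 6915 free islands with such an origin and by 3.997% of the 6630 without, a difference of 8.27 points (7.36 to 9.18). H3K9me3 went the other way, with 17.4% and 25.1%, a difference of -7.67 points (-9.04 to -6.30). Free islands with the origin were wider, at a median of 1600 against 1000 bp. At the widths of all free islands the H3K4me3 shares were 12.4% and 4.16%, and the H3K9me3 shares 16.7% and 25.9%. The same directions held in islands with an origin only, where H3K4me3 was met by 23.6% and 7.05% and H3K9me3 by 23.3% and 32.9%. In the classes with CDT2 the H3K4me3 shares differed in the same direction, by 6.14 points (4.20 to 8.18) with CDT2 only and by 14.1 points (12.7 to 15.4) with both. The H3K9me3 difference was -3.95 points (-7.42 to -0.47) with CDT2 only and -1.04 points (-2.99 to 0.93), an interval that included 0, with both. H3K4me3 was met by 5.83% (5.03 to 6.75) of the free islands with H3K9me3, against 8.86% (8.33 to 9.41) of those without. Of the free islands with H3K4me3, 76.2% (73.6 to 78.6) met an HCT116 RepID KO origin, against 48.8% (47.9 to 49.7) of the others.

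Free islands changed in makeup with their gap to the nearest U2OS origin. Up to 1 kb from an origin, 65.5% (63.3 to 67.7) of 1801 free islands met an HCT116 RepID KO origin, and from over 20 to 50 kb 36.7% (34.2 to 39.3) of 1354 did. At more than 50 kb the share was 38.4% (35.0 to 41.9) of 766. The gap rests on a list used in the choice, and HCT116 RepID KO origins often overlap that list, so this fall was not tested. By the gap to CDT2 the share also fell, from 62.4% (54.6 to 69.6) up to 1 kb to 42.1% (40.7 to 43.5) at more than 50 kb. Median width fell along the same steps from 1600 to 1000 bp, and with each step weighted to the widths of all free islands the shares were 63.5%, 39.7% and 40.9%. H3K9me3 was met by 16.99% (15.3 to 18.8) up to 1 kb, by 24.6% (22.7 to 26.5) from over 10 to 20 kb and by 20.5% (17.8 to 23.5) at more than 50 kb. H3K4me3 ran from 9.16% (7.92 to 10.6) to 6.66% (5.10 to 8.65), with overlapping intervals at the ends. SKP2 ran the other way in both genotypes. In RepID KO cells it went from 2.72% (2.06 to 3.58) up to 1 kb to 5.61% (4.19 to 7.48) at more than 50 kb. In WT cells it went from 2.83% (2.16 to 3.70) to 4.96% (3.64 to 6.74), with intervals that overlapped slightly.

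**Figure D4:**
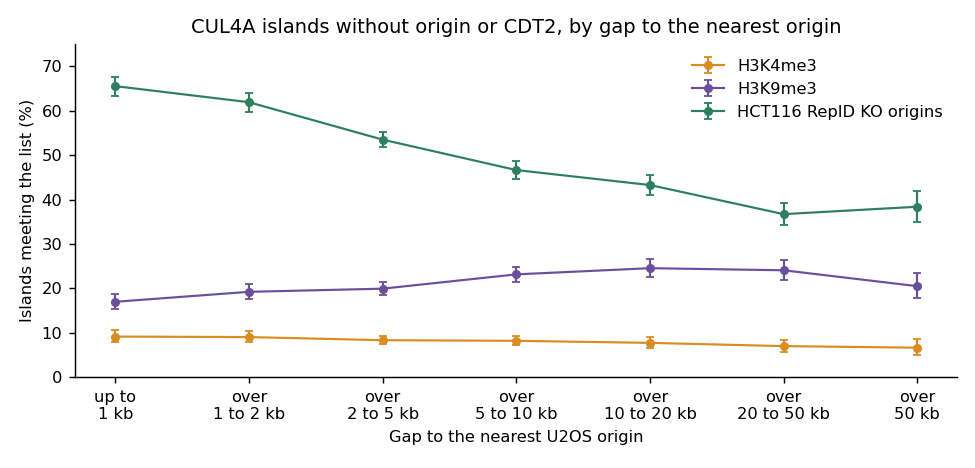
Percentage of free islands that met H3K4me3, H3K9me3 and HCT116 RepID KO origins, by the gap to the nearest U2OS origin; error bars are Wilson 95% intervals. The share with HCT116 RepID KO origins fell from 65.5% to 38.4%, while H3K9me3 was highest, at 24.6%, from over 10 to 20 kb.

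Free islands of high score met each of the 5 lists more often than those of low score. Between the lowest and the highest of 5 equal score groups of 2709, the share with an HCT116 RepID KO origin went from 29.6% to 73.0%, and median width went from 600 to 2600 bp. H3K9me3 went from 18.4% (16.97 to 19.9) to 24.1% (22.6 to 25.8) and H3K4me3 from 6.57% (5.70 to 7.57) to 10.3% (9.25 to 11.5). SKP2 of WT cells went from 1.70% (1.28 to 2.26) to 6.24% (5.39 to 7.21). SKP2 of RepID KO cells went from 2.25% (1.76 to 2.88) to 6.53% (5.66 to 7.53). At a score of at least 100, a WT SKP2 region was met by 11.3% of the 761 free islands and 11.9% of 10124 islands with an origin only, and a RepID KO region by 11.2% and 13.1%. Of the 23 free islands with a score of at least 500, 18 met a WT SKP2 region, 17 a RepID KO one and 14 both, and 22 met an HCT116 RepID KO origin. Of the 724 islands with an origin only at that score, 42.4% met a WT and 35.8% a RepID KO SKP2 region, and 19.3% met both. The higher shares of free islands at that score rest on 23 islands.

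The 5 free islands of highest score, with positions counted from 1 in the deposited coordinates of build hg19, all met both SKP2 lists and an HCT116 RepID KO origin. The first, on chromosome 4 from 49511401 to 49519800, had a score of 5244 and lay 140400 bp from the largest stretch of the chromosome without any listed region. It met an H3K4me3 peak with a fold enrichment of 1.71, and its nearest U2OS origin was 7800 bp away. The second, on chromosome 5 from 3321801 to 3327200, had a score of 3568 and lay 1200 bp from an origin. The third, on chromosome 2 from 89864601 to 89883600, was also the widest free island, with 19000 bp and a score of 2967, and it met 4 SKP2 regions in each genotype. Those on chromosome 21 from 45022401 to 45026600 and on chromosome 9 from 91984601 to 91988400 had scores of 2784 and 2571. The SKP2 regions there were among the strongest of their lists. At the chromosome 5 island the WT region ranked 19 of 11929 and the RepID KO region 16 of 13518. On chromosome 9 the ranks were 30 and 14, and on chromosome 21 they were 29 and 34. The weakest ranks of the 5 were those on chromosome 2, 270 and 393. H3K9me3 met 4 of the 5, with a fold enrichment of its strongest region between 1.56 and 3.31, under the list's median of 4.03. The −log10 q of the H3K9me3 regions there ran from 1.68 on chromosome 2 to 21.29 on chromosome 5. The H3K4me3 peak on chromosome 4 had 12.61. Of the 23 free islands with a score of at least 500, 3 lay within 1 Mb of their chromosome's largest stretch without listed regions. Of all free islands 1.255% did. Whether CUL4A and SKP2 share these sites, or signals there were high whatever the antibody, was not tested.

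Other free islands show the range. The next widest after it lay on chromosome 7 from 158121601 to 158137400 (15800 bp, score 761) and on chromosome 22 from 28219601 to 28232600 (13000 bp, score 421). The second highest score among free islands with H3K4me3, 997, belonged to an island on chromosome 22 from 48018401 to 48027800, where 2 H3K4me3 peaks shared 2938 of its 9400 bp and an HCT116 RepID KO origin covered it whole. Of the free islands that met none of the 5 lists, the strongest had a score of 418 and spanned 30358001 to 30359400 of chromosome 12. The next had a score of 260 and spanned 4544401 to 4553800 of chromosome 7. Both lay near origins, 1600 and 1000 bp away. The free island farthest from origins and CDT2 was on chromosome 18 from 63287001 to 63287800, 1049200 bp from an origin. It was followed by those on chromosome 13 from 84453601 to 84454400 and on chromosome 4 from 161607001 to 161607600, at 755200 and 740800 bp. Each of these 3 was at most 800 bp wide and had a score between 37 and 70, and each met an HCT116 RepID KO origin and neither histone mark.

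Free islands took the largest part of the CUL4A islands where origins were sparse. By chromosome they made up 43.7% of the islands on chromosome 13, which held 10.7 origins per Mb, 43.0% on chromosome 18 and 38.5% on chromosome 4. Their share was lowest on chromosome 17, 15.1%, which held 72.1 origins per Mb. In number they were densest on chromosome 19, with 11.1 per Mb, and sparsest on chromosome 5, with 2.80 per Mb. All CUL4A islands were likewise densest on chromosome 19, with 51.1 per Mb, of which free islands were 21.7%, under their 24.3% of all autosomal islands. In 1 Mb bins with fewer than 20 origins 53.5% of the islands were free, and with 60 or more 18.0%, but the latter bins held 6651 of the 13545 free islands. That relation follows in part from the choice, since a denser list of origins leaves fewer islands without one. Lists outside the choice varied as well. On chromosome 19, free islands met H3K4me3 in 16.8% and H3K9me3 in 14.5%, the highest and the lowest share of the 22 chromosomes. HCT116 RepID KO origins were met by 39.6% of free islands on chromosome 8 and 65.3% on chromosome 19. The shares of all CUL4A islands that met these lists were not counted by chromosome. Whether these extremes are particular to free islands was therefore not tested.

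**Figure D5:**
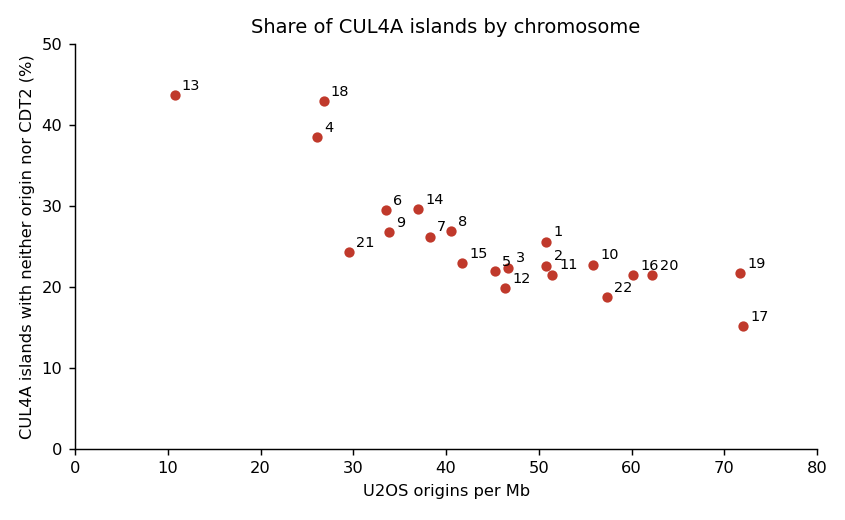
Percentage of CUL4A islands that were free islands against the number of U2OS origins per Mb, 1 point for each of chromosomes 1 to 22, labelled with the chromosome. Chromosomes 13, 18 and 4 stood above the rest, at 43.7%, 43.0% and 38.5%, and chromosome 17 was lowest at 15.1%.

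Free islands were followed by a free island more often than other islands were. The next CUL4A island along the chromosome was free for 34.4% of free islands and for 21.1% of the others. Even so, 6098 (45.0%) stood alone between islands of other classes, and 3971 (29.3%) belonged to runs of at least 3. These values rest on the lists used in the choice, so they describe it and were not tested. In part they follow from it, since free islands took a larger share of the islands where origins were sparse. The longest run held 14 free islands on chromosome 7 between 149917001 and 150733000, a stretch with 13 U2OS origins, no CDT2 peak and 47 HCT116 RepID KO origins. Of these 14, 13 met an HCT116 RepID KO origin, 3 met H3K4me3 and 1 met H3K9me3. Runs of 12 lay on chromosome 6 between 110162201 and 110950800 and on chromosome 15 between 31538401 and 31820400, where 6 and all 12, respectively, met an HCT116 RepID KO origin. Counted in bins of 1 Mb, 2475 of 2894 held a free island. The most, 34 of 71 CUL4A islands, lay on chromosome 1 from 228000001 to 229000000. The next bins were on chromosome 10 from 133000001 to 134000000 with 30 of 53, and on chromosome 19 from 48000001 to 49000000 with 29 of 81. Their free islands were of ordinary strength, with median scores of 43.5, 44.5 and 44. HCT116 RepID KO origins met 24 of the 34, 26 of the 30 and 13 of the 29.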

How the data were processed

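The authors called regions from their reads before they deposited the lists, and no reads were used here. Per the study's methods, CUL4A islands and origins came from SICER with a window of 200 bp, a gap of 600 bp and a false discovery rate of 1e-05 and 0.01. SICER is also named for both histone marks, but their deposited files are laid out as MACS broad peaks and give the authors' fold enrichment (a ratio) and −log10 q. The scale of the deposited score was not stated, and scores were compared only within a list. The submitters' processing notes name build hg19, MACS and SICER. A genome and annotation of that build were not used here, so no gene was assigned and no sequence read. The 3 input samples of the 11 have no list.

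Islands of chromosomes 1 to 22 were sorted by an overlap of at least 1 bp. Shares have Wilson and differences Newcombe 95% intervals. Shares of other classes were also weighted to the free islands over 5 width classes, and over 3 in the comparison by gap to an origin. No test over samples was possible with 1 sample per condition, and none was run over regions. The code for overlaps was checked on simulated regions against counting base by base, which gives no chance value. Regions named were the 5 of highest score, the 3 widest, the 2 of highest score for each list and for no list, the 3 farthest from origins and CDT2, the 3 longest runs and the 3 fullest bins. The members and lists were chosen with earlier results of these data known. Python 3.11.15, NumPy 2.4.6, pandas 2.3.3, SciPy 1.17.1 and matplotlib 3.10.9 were used.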

Additional observations from a re-analysis of the deposited data

How the results depend on the processing

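The number of free islands, 13545 as reported, was 3703 when no origin or CDT2 peak could lie closer than 10 kb, 29123 when every region was replaced by 1 kb around its centre and 22800 when the stronger 50% of origins and CDT2 peaks alone could remove an island. It lay between 12208 and 19667 with a limit of 1 kb, with removal at a coverage of at least 50%, with chromosome X included and without the CDT2 list. With the limit of 10 kb the median width was 1200 bp and the median score 36. The shares below follow the order H3K4me3, H3K9me3, SKP2 in WT, SKP2 in RepID KO and HCT116 RepID KO origins. Counting an overlap of at least 50% of the island gave 5.56%, 5.57%, 0.716%, 0.694% and 44.1%. The limit of 10 kb gave 7.35%, 23.7%, 3.84%, 4.46% and 39.5%. Using 1 kb around each island's centre gave 7.27%, 17.1%, 2.52%, 2.89% and 48.9%. Free islands in the upper 50% of all islands by score had 10.2%, 24.2%, 6.35%, 6.78% and 73.6%, and the stronger 50% of each list gave 4.98%, 11.4%, 1.23%, 1.63% and 31.7%. With 1 kb around the centres of the listed regions, the H3K4me3 share was 6.68% and that of the origins 36.0%. Widths between the quartiles of all islands gave 8.82% for H3K4me3 and 57.9% for the origins, and the limit of 1 kb gave 49.6% for the origins. Leaving the CDT2 list out of the choice was an alternative added after the data had been seen. The shares from H3K9me3 on were then 26.95%, 4.90%, 4.999% and 48.8%. The other shares stayed within the intervals of the reported ones. Differences from islands with an origin only, also added afterwards, were -10.1, -2.09, -1.41, -1.36 and -16.0 points at equal widths. Counted in 1 kb around each island's centre they were -8.24, 1.37, -0.90, -0.98 and -24.5 points. That for H3K9me3 changed sign there, and the cause was not tested. No paired analysis was possible because no result comes from a test over samples. Gene positions, start sites and GC content of the free islands were planned and not run, since they need a genome of the lists' build. With 1 sample per condition and unknown depth, whether a list missed a weak region cannot be told from the region lists.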
